A study of Mus musculus with 6 samples.

Results

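The genes followed here, 10 of the JAK-STAT pathway, were measured by RNA-seq in mouse bone marrow-derived macrophages (BMMs): the feedback inhibitors Socs1, Socs3 and Cish, the transcription factors Stat3, Stat5a, Stat5b and Stat6, and the kinases Jak1, Jak2 and Jak3. They were taken by symbol, with earlier results of these libraries known, and all 10 were found among the 23504 genes of the expression table. BMMs of the strain C57BL/6, which came from male mice aged 6 to 8 weeks, were treated with DASA-58 or with an equal volume of its solvent dimethyl sulfoxide (DMSO), and RNA was taken after 3 days. DASA-58 is a small molecule that activates pyruvate kinase M2 (PKM2), the glycolytic enzyme under study, and the comparison asked how the activator changed transcription while BMMs were turned toward osteoclasts, the cells that resorb bone, with receptor activator of NF-κB ligand (RANKL). The study's account gives RANKL to both groups in its results, whereas its methods name RANKL for the DASA-58 group only and write the compound as DASA-48. The dose used for sequencing was not given in the sources used here. Each group held 3 libraries, numbered 1 to 3. Nothing in the labels says that they came from separate cultures or animals, so the p-values measure the spread between these libraries, which may be technical.

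The values are FPKM, fragments scaled to the length of the transcript and to the depth of the library. Whole fragments could be recovered from them, and the libraries held 18191560 to 18968556 fragments each. Libraries of the same group lay closer to each other than to the other group. The mean chi-square per gene was 2.66 to 4.03 for pairs within a group and 13.1 to 16.1 for pairs across groups. All 8 macrophage markers were expressed, and their summed level was 16412 to 17255 FPKM with DMSO against 17342 to 19651 FPKM with DASA-58. Most of this sum was Lyz2, at 14701 to 15513 FPKM with DMSO and 15447 to 17767 FPKM with DASA-58. Lyz2 was not called (limma adjusted p = 0.109). Of the 8 markers, Adgre1, Cd68 and Mertk passed the test as higher and Cd14 as lower. Osteoclast markers were present in both groups and moved with treatment. Their 10 genes summed to 777.8 to 833.4 FPKM with DMSO against 449.1 to 467.3 FPKM with DASA-58, and all 9 that could be tested were lower. Of all genes tested, 7.28% were lower and 4.24% higher at an adjusted p under 0.05. The 9 neutrophil markers summed to 179.2 to 184.0 FPKM and 146.1 to 151.7 FPKM, with 4 lower and 1 higher of 8 tested, while Ly6g reached at most 0.0583 FPKM in any library. T and NK cell markers were near 0, with sums of 1.47 to 2.38 FPKM with DMSO against 1.67 to 2.26 FPKM with DASA-58. In bulk RNA, fewer cells of a type and less RNA per cell cannot be told apart, which holds for every value below. What part the shift in cell markers had in the results below was not tested.

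In the pathway, a cytokine brings its receptor chains together, and JAK kinases bound to the chains phosphorylate the receptor and the STAT proteins that dock there. Phosphorylated STATs pair, enter the nucleus and bind a palindromic element of the form TTCNNNGAA. Some genes of the SOCS family (Cish, Socs1 to Socs7) are among the targets, best known for Cish and Socs1 to Socs3. Their proteins bind receptors or kinases and damp the signal, so that transcripts of these targets are often read as a sign of recent cytokine signaling. STAT3 and SOCS3 act below receptors that signal through gp130, STAT5 and CISH below the receptors of GM-CSF and interleukin 3, STAT6 below the interleukin 4 receptor, and JAK1 with JAK2 at the interferon gamma receptor. In the macrophage lineage, interferon gamma and interleukin 4 signaling through this pathway is known to restrain osteoclast formation.

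The promoter windows of the members, 250 bases before to 50 bases after each annotated start, were searched for the STAT element. Every stretch that holds it is shown. Whether the element bears on the change of a gene was not tested. The sequences are those of RefSeq on the build GRCm38.p6, written 5′ to 3′ along the strand of the gene, with each match to TTCNNNGAA in capitals.
Cish, chr9:107296654-107296683, plus strand: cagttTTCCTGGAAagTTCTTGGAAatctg
Socs3, chr11:117969501-117969530, minus strand: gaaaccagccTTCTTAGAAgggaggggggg
The starts are those of RefSeq, at position 107296659 for Cish and 117969366 for Socs3, and both lie inside the longer gene bounds of GENCODE given with the values below. In Cish the first match began on the base of the RefSeq start itself, and another began 11 bases further on. In Socs3 the single match began 154 bases before the RefSeq start, and the stretch lies within the GENCODE bounds of the gene, as that of Cish does. The motif reads the same on both strands. It was present in the windows of 2 of the 10 members, which have 12 windows between them, and in 8.30% of all 32851 windows, or 9.55% of the 27025 genes with a window. The longer form TTCNNNNGAA, which STAT6 prefers, was in no window of a member and in 6.95% of all windows. A match describes the letters of the window and does not show that a STAT protein binds there.

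Among the feedback inhibitors, Socs3 fell to 62.7% of its DMSO level, and no other member had a larger tested change. Socs3 (ENSMUSG00000053113, chr11:117966079-117970047 on GRCm38) encodes the inhibitor of gp130 and G-CSF receptor signaling. Its level was 7.73, 6.95 and 6.90 FPKM in the DMSO libraries and 4.81, 4.51 and 4.21 FPKM in the DASA-58 libraries. Every DASA-58 library lay below every DMSO library. The means were 7.19 ± 0.465 FPKM and 4.51 ± 0.300 FPKM (SD, n = 3), from 363 to 410 fragments per DMSO library and 231 to 262 per DASA-58 library. The change on the log2(FPKM + 1) scale, on which every tested change here is given and which understates the change of low genes, was -0.57 with an SE of 0.061 and a 95% confidence interval of -0.71 to -0.43 (limma, Benjamini-Hochberg adjusted p = 0.00131). Socs3 ranked 137 by p of the 10965 genes tested, of which 7.28% were called lower and 4.24% higher at an adjusted p under 0.05. It was called lower under all 18 alternative settings, with adjusted p between 2.13e-06 and 0.0346.

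Cish was near the limit of detection, and its values were lower with DASA-58. Cish (ENSMUSG00000032578, chr9:107296026-107302784) encodes the SOCS family member induced by STAT5. It had 10, 15 and 13 fragments in the DMSO libraries and 7, 6 and 5 in the DASA-58 libraries, or 0.107 ± 0.0199 and 0.0501 ± 0.0085 FPKM (SD, n = 3). The groups did not overlap, but the gene was under the minimum mean of 1 FPKM for the test. When every gene was tested without that minimum, its change of -0.08 (SE 0.023) had an adjusted p of 0.186 by limma. Socs1 (ENSMUSG00000038037, chr16:10782240-10785536), which encodes a direct inhibitor of JAK kinases, had 2.28, 1.57 and 1.94 FPKM with DMSO against 1.31, 1.71 and 1.51 FPKM with DASA-58. The groups overlapped, since DASA-58 library 2 lay above DMSO library 2. Its change was -0.22 (95% confidence interval -0.47 to 0.03, limma adjusted p = 0.234), and the interval includes 0 as well as decreases as large as that of Stat5a.

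**Figure D1:**
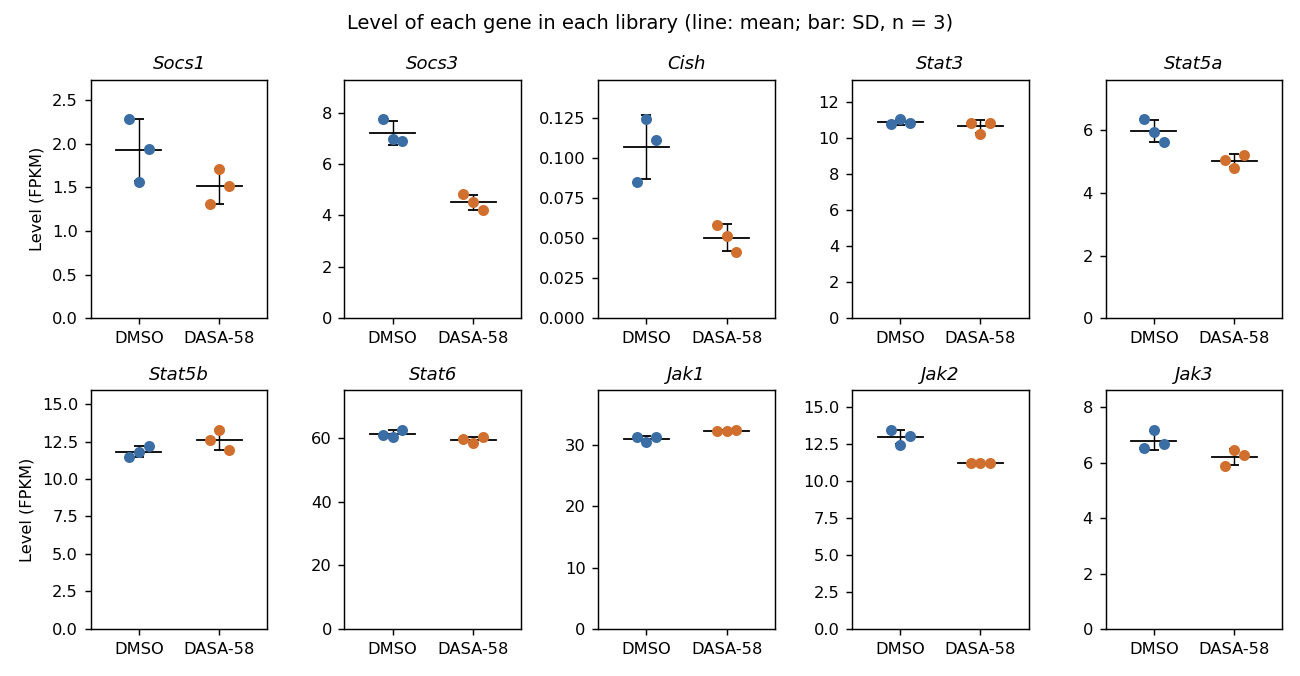
Level of each member in FPKM (vertical axis, starting at 0 in each panel) in the 3 DMSO and 3 DASA-58 libraries. Points are libraries, the line is the mean and the bar the SD. Socs3, Cish, Stat5a, Jak2, Jak3 and, by a narrow margin, Stat6 have every DASA-58 point below every DMSO point, Jak1 has every DASA-58 point above, and the 3 DASA-58 points of Jak2 lie together at 11.2 FPKM.

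Of the 4 STAT genes, Stat5a was called lower and the others were not called. Stat5a (ENSMUSG00000004043, chr11:100859351-100885169) and Stat5b encode the transcription factors below the GM-CSF and interleukin 3 receptors. Stat5a had 6.35, 5.94 and 5.64 FPKM with DMSO against 5.06, 4.80 and 5.22 FPKM with DASA-58, with no overlap. DASA-58 stood at 84.1% of DMSO, and the change was -0.21 (SE 0.054, 95% confidence interval -0.34 to -0.08, limma adjusted p = 0.0462), from 623 to 831 fragments per library. The call was close to the threshold and was kept under 6 of 18 alternatives. It was lost without DMSO library 1 (limma adjusted p = 0.135), DMSO library 2 (0.0930), DASA-58 library 1 (0.109), 2 (0.131) or 3 (0.0829), and when libraries were centred on their medians (0.0742) or scaled by a trimmed mean of log ratios (0.0741). Quantile normalization (0.086), the replicate block (0.082), no minimum level (0.12), no variance trend (0.0581) and no variance shrinkage (0.116) also lost it.

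Stat5b (ENSMUSG00000020919, chr11:100780731-100850724) had 11.5, 11.8 and 12.2 FPKM with DMSO against 12.6, 13.3 and 11.9 FPKM with DASA-58. The groups overlapped, and the change of 0.08 (95% confidence interval -0.03 to 0.19) was not called (limma adjusted p = 0.302). Within each library the level of Stat5a over that of Stat5b was 0.506 ± 0.0467 with DMSO against 0.401 ± 0.0376 with DASA-58 (SD, n = 3). These ratios did not overlap, and the exact two-sided permutation test gave p = 0.10, the smallest that 3 against 3 libraries allow. The ratio was formed after the values had been seen. Stat5a and Stat5b are near-identical paralogs that lie side by side, with 8626 bases between them, and how fragments matching both were counted was not given in the sources used here, so the split between them is uncertain.

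Stat3 (ENSMUSG00000004040, chr11:100885098-100939540), the transcription factor below gp130 and the interleukin 10 receptor, had 10.8, 11.0 and 10.8 FPKM with DMSO against 10.9, 10.2 and 10.9 FPKM with DASA-58. Its change was -0.03 with a 95% confidence interval of -0.12 to 0.06 (limma adjusted p = 0.671). The annotated Stat3 and Stat5a genes overlap by 72 bases at their 3′ ends on opposite strands, and the strand setting of the counting was not given, so fragments there cannot be assigned with certainty. Stat6 (ENSMUSG00000002147, chr10:127642986-127660957), the transcription factor of interleukin 4 signaling, was the highest of all members. It had 61.0, 60.2 and 62.5 FPKM with DMSO against 59.8, 58.3 and 60.2 FPKM with DASA-58. The groups were only just apart, the change was -0.04 (95% confidence interval -0.11 to 0.02), and it was not called (limma adjusted p = 0.381).

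Among the kinases, Jak2 fell to 86.6% of its DMSO level. Jak2 (ENSMUSG00000024789, chr19:29251828-29313080) encodes the kinase of the GM-CSF, interleukin 3 and interferon gamma receptors. Its level was 13.4, 12.4 and 13.0 FPKM with DMSO against 11.2 FPKM in each of the DASA-58 libraries, whose SD was 0.0105. At 1027 to 1070 fragments per DASA-58 library, counting error is larger than this SD, so the SD is no measure of precision. The change was -0.19 (SE 0.039, 95% confidence interval -0.28 to -0.10, limma adjusted p = 0.0194), from 1027 to 1238 fragments per library. It was called under 12 of 18 alternatives and lost without DMSO library 1 (limma adjusted p = 0.0693) or 3 (0.0515) and without DASA-58 library 1 (0.0632), 2 (0.0595) or 3 (0.0658). The call was also lost without variance shrinkage (0.054).

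Jak1 (ENSMUSG00000028530, chr4:101152367-101265282), which serves gp130, interferon and common gamma chain receptors, had 31.2, 30.5 and 31.4 FPKM with DMSO against 32.3, 32.2 and 32.4 FPKM with DASA-58. All 3 DASA-58 libraries lay above the DMSO libraries, but the change of 0.06 (95% confidence interval -0.01 to 0.12) was not called (limma adjusted p = 0.245). The level of Jak2 over that of Jak1 in the same library, also formed after the values had been seen, was 0.417 ± 0.0113 with DMSO against 0.347 ± 0.0013 with DASA-58 (SD, n = 3), with no overlap (exact two-sided permutation p = 0.10). The small SD with DASA-58 is under counting error here too. Jak3 (ENSMUSG00000031805, chr8:71676296-71690575), the kinase bound to the common gamma chain and best known in lymphocytes, had 6.55, 7.18 and 6.66 FPKM with DMSO against 5.87, 6.46 and 6.29 FPKM with DASA-58. Its groups did not overlap, and its change of -0.11 (95% confidence interval -0.23 to 0.01) was not called (limma adjusted p = 0.207). In these libraries the T and NK cell markers together reached at most 2.38 FPKM and the B cell markers at most 2.45 FPKM. FPKM of different genes cannot assign a transcript to a cell type, and the source of the Jak3 transcripts was not tested.

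**Figure D2:**
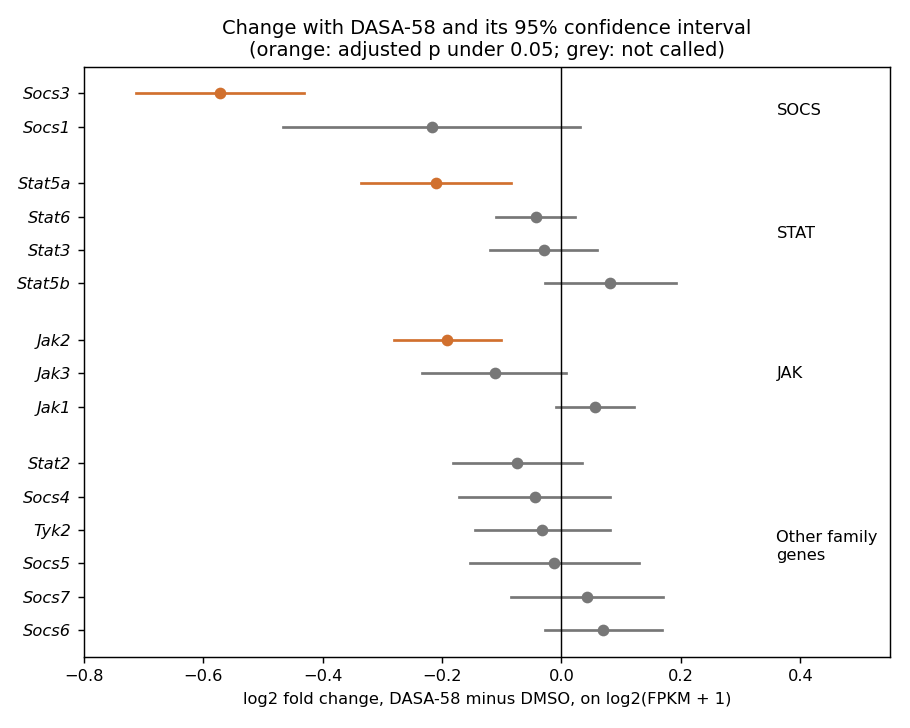
Change of each tested gene with DASA-58 (horizontal axis, log2 fold change on log2(FPKM + 1), DASA-58 minus DMSO) with its 95% confidence interval, by role. Socs3 (-0.57), Stat5a (-0.21) and Jak2 (-0.19) are the genes called lower, in orange, and the intervals of all others, in grey, cross 0.

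Over the members as a whole, 3 of the 9 that could be tested were lower (Socs3, Stat5a and Jak2) and none was higher at an adjusted p under 0.05 by limma, where 7.28% of all genes tested were lower and 4.24% higher. At an unadjusted p under 0.05 the counts were also 3 lower and 0 higher, beside 18% and 9.83% of all genes. Under voom, which weights the recovered fragments, they were again 3 and 0, beside 12% and 6.64% of all genes. The median change of the 9 was -0.11, beside -0.03 for all genes tested. The groups did not overlap for 6 of the 9, while 33.4% of all genes tested had groups that did not overlap. The members' changes ran from -0.57 for Socs3 to 0.08 for Stat5b.

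**Figure D3:**
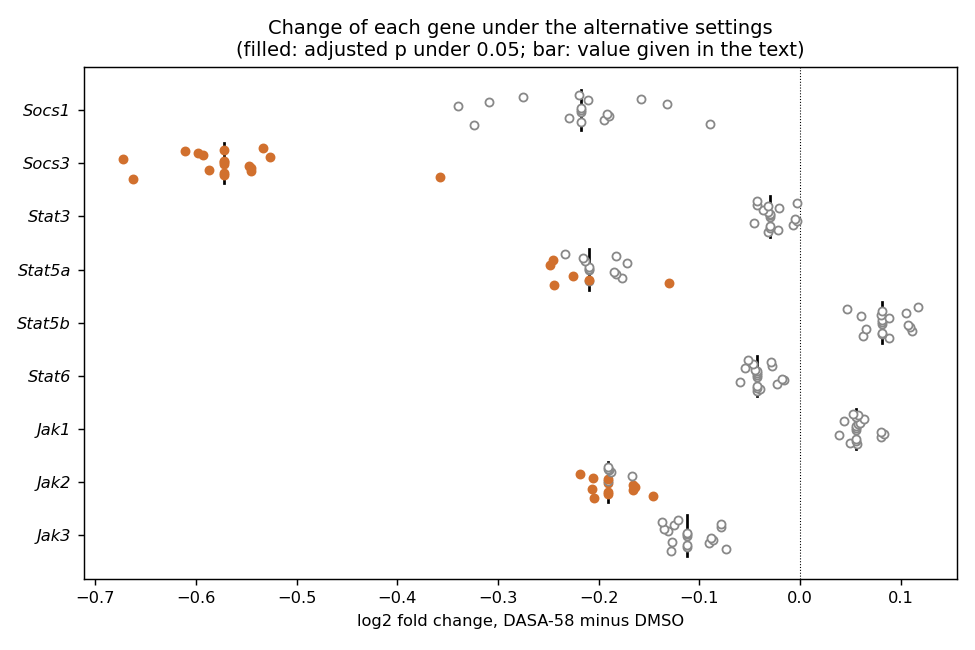
Change of each tested member (log2 fold change, DASA-58 minus DMSO) under the 18 alternatives (points) and as given in the text (bar), with filled points where the adjusted p was under 0.05. Socs3 is filled throughout, Jak2 in 12 and Stat5a in 6 of the 18 alternatives, and no other member shown is filled under any of them.

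The members spanned a wide range of levels per length of transcript. With DMSO the order of mean FPKM was Stat6, Jak1, Jak2, Stat5b, Stat3, Socs3, Jak3, Stat5a, Socs1 and Cish. Of the neighbours in this order, Socs3 and Jak3 were the pair whose libraries overlapped. With DASA-58 the order was Stat6, Jak1, Stat5b, Jak2, Stat3, Jak3, Stat5a, Socs3, Socs1 and Cish, and Stat5a and Socs3 were the pair that overlapped. Jak2 and Stat5b thus changed places, and Socs3 passed from above Jak3 and Stat5a to below them. Stat6 had 61.3 ± 1.16 FPKM with DMSO against Stat3 10.9 ± 0.136 FPKM (SD, n = 3). Within the SOCS genes, the level of Socs3 over that of Socs1 was 3.80 ± 0.564 with DMSO against 3.03 ± 0.569 with DASA-58, and these ratios overlapped (exact two-sided permutation p = 0.30).

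**Figure D4:**
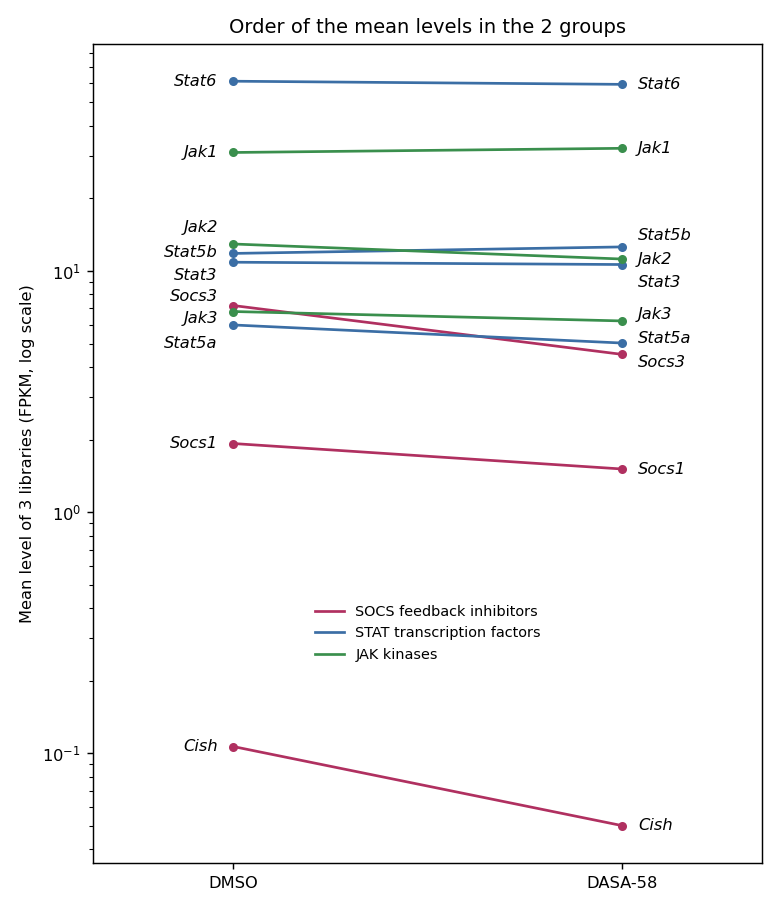
Mean level of each member (vertical axis, FPKM on a log scale, 3 libraries) with DMSO against with DASA-58, joined by a line and coloured by role. The lines of Jak2 and Stat5b cross near 12 FPKM, and that of Socs3 runs from above Jak3 and Stat5a to below them.

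None of the other genes of the same families passed the test. Of 8, 6 could be tested, with a median change of -0.02 and no gene at an unadjusted p under 0.05, and voom called none either. Tyk2, the remaining JAK kinase, had 14.7 ± 0.198 FPKM with DMSO against 14.4 ± 0.978 FPKM with DASA-58 (SD, n = 3, limma adjusted p = 0.722). Stat2, a transcription factor of type I interferon signaling, had 16.6 ± 0.994 and 15.7 ± 0.287 FPKM (limma adjusted p = 0.355). Stat4 had at most 4 fragments in any library. Of the other SOCS genes, Socs4 stood at 96.4%, Socs5 at 98.9%, Socs6 at 106% and Socs7 at 104% of DMSO, with limma adjusted p of 0.648, 0.925, 0.330 and 0.661. Socs2, a target of STAT5 in many cells, was under the minimum for the test, with 15 to 34 fragments per DMSO library and 10 to 13 per DASA-58 library.

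The 17 regulators of the pathway, among them PIAS proteins, phosphatases and adaptors, were all tested and none was called. Their changes ran from -0.10 to 0.07 with a median of -0.02, no regulator had an unadjusted p under 0.05, and voom called none. The most abundant were Ptpn6, the phosphatase SHP-1, with 141 ± 4.12 FPKM with DMSO against 140 ± 1.48 FPKM with DASA-58 (SD, n = 3), and the adaptor Grb2, with 118 ± 2.06 and 115 ± 2.66 FPKM.

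Of the 22 cytokine receptor genes that could be tested, 3 rose (Csf3r, Il7r and Ifngr1) and 1 fell (Csf2rb2). Over all genes tested, 4.24% rose and 7.28% fell. Csf3r, the G-CSF receptor whose signal SOCS3 limits, had 7.64, 8.07 and 7.96 FPKM with DMSO against 12.2, 10.0 and 9.55 FPKM with DASA-58. Every DASA-58 library lay above every DMSO library, and the change was 0.38 (SE 0.080, limma adjusted p = 0.0231). Csf3r is also carried by neutrophils, and of the 8 neutrophil markers tested 4 were lower and Mmp8 was higher. What part such cells had in the change of Csf3r was not tested. Il7r, the interleukin 7 receptor alpha chain, rose from 7.72 ± 0.603 to 9.89 ± 0.672 FPKM (SD, n = 3, limma adjusted p = 0.0205). Ifngr1, the ligand-binding chain of the interferon gamma receptor, rose by less, from 122 ± 2.07 to 132 ± 2.53 FPKM (limma adjusted p = 0.0324).

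Csf2rb2, the beta chain of the mouse interleukin 3 receptor, fell from 25.8 ± 1.08 to 22.0 ± 0.721 FPKM (limma adjusted p = 0.0149), while Csf2ra, the GM-CSF receptor alpha chain and the most abundant of the receptors tested, had 256 ± 8.58 and 257 ± 2.24 FPKM (change 0.01, 95% confidence interval -0.06 to 0.08). Csf2rb2 and its paralog Csf2rb are alike in sequence, so the split of fragments between them is uncertain. Csf2rb, which lay outside the rule for named genes, had 45.4 ± 0.404 FPKM with DMSO against 42.0 ± 1.94 FPKM with DASA-58 (SD, n = 3). Its groups did not overlap, and it was not called (limma adjusted p = 0.101). Each of the 4 calls was lost without at least 1 of the libraries. Csf3r was lost without DMSO library 1 (limma adjusted p = 0.0783), 2 (0.0526) or 3 (0.0564), and Il7r without DMSO library 2 (0.0535) or 3 (0.0555) or DASA-58 library 1 (0.0712) or 2 (0.0678). Csf2rb2 was lost without DMSO library 1 (0.0532) or DASA-58 library 2 (0.0546) or 3 (0.0590). When a library was left out, Ifngr1 was kept only without DMSO library 2 and had adjusted p of 0.0535 to 0.111 without each of the others. Over the 18 alternatives, Csf3r and Csf2rb2 were called in 13 each, Il7r in 12 and Ifngr1 in 9.

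Of 22 cytokine genes analysed, 5 were expressed at a level that could be tested. Ebi3 was called higher, as were 4.24% of all genes tested. Ebi3, the shared subunit of interleukins 27 and 35, had 26.6, 27.0 and 28.2 FPKM with DMSO against 34.6, 30.9 and 35.6 FPKM with DASA-58, a change of 0.29 (SE 0.054, limma adjusted p = 0.0132). The call was lost without DMSO library 1 (0.0534) or DASA-58 library 1 (0.0516), and it was kept under 14 of 18 alternatives. Il15 had 11.1 ± 0.483 and 10.9 ± 1.19 FPKM (limma adjusted p = 0.893).

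Genes known as targets of STAT proteins were counted by the STAT concerned, whatever the direction of its effect on them. Most have other inducers, and the lists were chosen with earlier results of these libraries known. Over the 30 targets tested, 10 were lower and 2 higher, with a median change of -0.05. Of all genes tested, 7.28% were lower and 4.24% higher, with a median of -0.03. Those called stood on the lists of STAT3 and STAT6, and no tested gene on the STAT5 list was called, although that list holds only 5 genes tested.

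On the STAT3 list, 6 of the 17 genes tested were lower and 1 was higher, with a median change of -0.05. The shares over all genes tested were 7.28% and 4.24%. Il1rn, the interleukin 1 receptor antagonist, had 15.0, 15.7 and 14.5 FPKM with DMSO against 8.76, 9.45 and 8.53 FPKM with DASA-58, a change of -0.70 (SE 0.049, limma adjusted p = 0.000215). Myc fell to 63.9% of DMSO (limma adjusted p = 0.00124) and Junb, a subunit of AP-1, to 74.1% (0.000403). Sbno2, a corepressor induced by interleukin 10, fell to 82.4% (0.00269), and Zfp36, which speeds the decay of cytokine mRNAs, to 85.0% (0.0167). The remaining lower gene, Bcl3 (84.8%, limma adjusted p = 0.0346), and the higher gene, Bcl2l1 (116%, 0.0194), lay outside the rule for named genes and were named after their values were seen. Mcl1, the most abundant of the list, had 224 ± 9.82 and 217 ± 3.87 FPKM (SD, n = 3, limma adjusted p = 0.467). Without DMSO library 1 the calls of Zfp36 (adjusted p = 0.0596), Bcl3 (0.107) and Bcl2l1 (0.0564) were lost. Bcl3 was also lost without DMSO library 2 (0.0848) or DASA-58 library 2 (0.102) or 3 (0.107), and Bcl2l1 without DMSO library 2 (0.0517) or DASA-58 library 1 (0.0521) or 3 (0.0742). Over the 18 alternatives, Bcl3 was called in 8, and Bcl2l1 and Zfp36 in 14 each.

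The STAT6 list showed changes in both directions. Of 8 genes tested, 4 were lower and 1 was higher, with a median of -0.19, beside 7.28% and 4.24% of all genes tested. Egr2, a transcription factor of alternatively activated macrophages, had 2.77, 2.50 and 2.73 FPKM with DMSO against 1.34, 1.49 and 1.35 FPKM with DASA-58 (change -0.62, SE 0.066, limma adjusted p = 0.00140). Matk, a kinase that acts on SRC family kinases, fell to 60.7% of DMSO (limma adjusted p = 0.00287), Chil3, the secreted lectin Ym1, to 74.1% (0.00131), and Klf4 to 81.1% (0.0110). Mrc1, the mannose receptor, rose to 131% (limma adjusted p = 0.00159), from 67.3 ± 2.57 to 87.8 ± 3.93 FPKM (SD, n = 3). Klf4 was called under 17 of 18 alternatives, and the other genes called on this list under every alternative that tested them. Mrc1 is also a general macrophage gene, and of the 8 macrophage markers 3 were higher, Cd14 was lower and 4 were not called.

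On the STAT5 list, Ccnd3 had 9.86 ± 0.666 FPKM with DMSO against 10.2 ± 0.346 FPKM with DASA-58 (SD, n = 3, limma adjusted p = 0.614), and Gadd45g 9.02 ± 1.53 and 8.80 ± 0.609 FPKM (0.914). No tested gene of the list had an unadjusted p under 0.05, and voom called none.

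**Figure D5:**
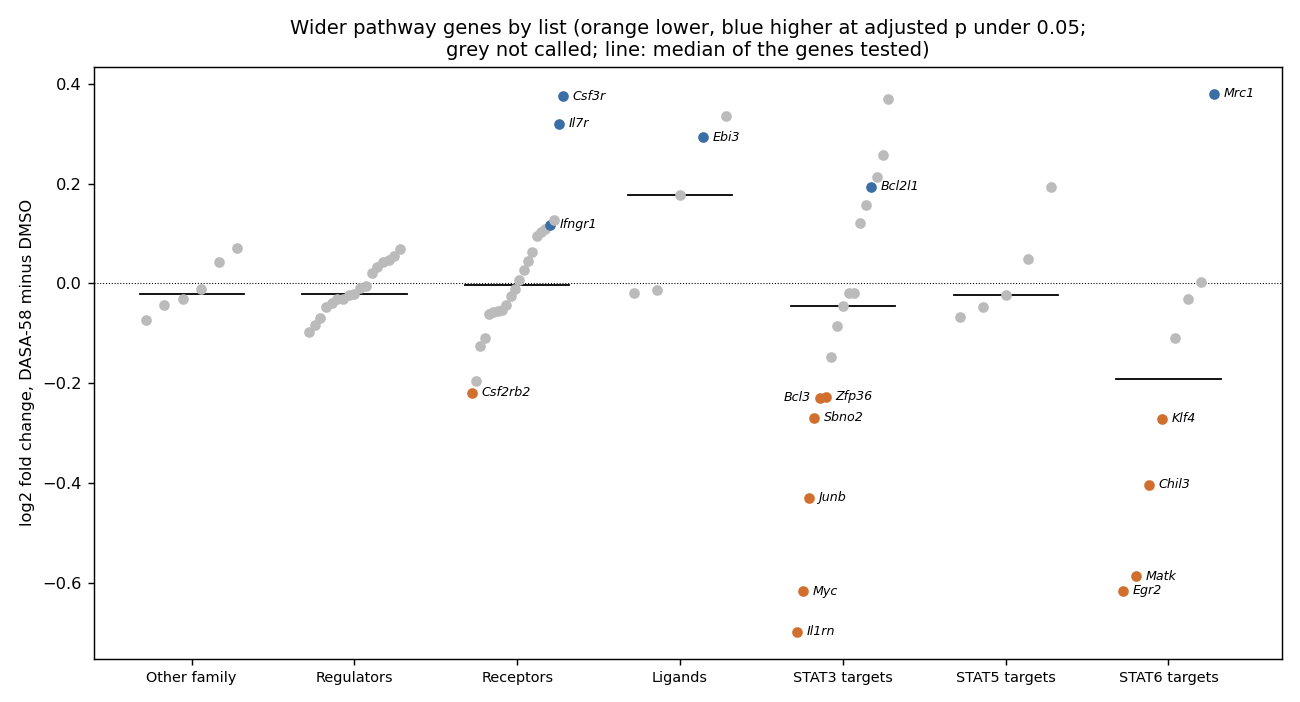
Change of each tested gene of the wider pathway (vertical axis, log2 fold change on log2(FPKM + 1), DASA-58 minus DMSO) by list, with the median of each list as a line. Genes called lower are orange, genes called higher are blue and the rest grey. The other family genes and the regulators lie between -0.10 and 0.07, while Il1rn (-0.70), Myc and Egr2 (both -0.62) lie lowest.

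Over all 7 wider lists, 80 genes were tested, of which 11 were called lower and 6 higher, around a median change of -0.02. The shares over all genes tested were 7.28% lower and 4.24% higher. Within these lists, the 10 lower targets thus made up all but 1 of the genes called lower, and the other was the receptor gene Csf2rb2. The lists were chosen with earlier results of these libraries known, so no conclusion is drawn from this.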

How the data were processed

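RNA-seq libraries of BMMs were grouped by the treatment in the labels (DMSO or DASA-58, 3 each). The authors deposited one table of FPKM values per gene and library. The submitters' processing notes name HISAT2 2.1.0, HTSeq 0.6.0 and the build mm8, and give no strand setting. No column was left unmapped (0 columns). Of 23504 gene identifiers, 23455 matched a symbol and 49 did not. Coordinates are those of GENCODE vM21 (GRCm38), not of mm8.

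The 10965 genes whose mean reached 1 FPKM were tested as log2(FPKM + 1) with limma 3.58.1 in R 4.3.3 (empirical Bayes with a trend in the variance, two-sided, Benjamini-Hochberg adjustment over all genes tested, called at 0.05). With the GENCODE exon lengths, the values of 90.9% of genes were whole numbers of fragments within 0.02 in every library, and a fitted length gave whole fragments (within 0.005) for a further 1370, Socs1 among them. These served for depth, fragment counts and voom. A floor of 3 fragments on 1000 bases was 0.158 to 0.165 FPKM, which covers counting error only. Single ratios were compared by exact permutation tests in SciPy 1.17.1. The limma fit was tested on simulated data.

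The members and gene lists were chosen with earlier results of these data known. Some genes of the pathway are not reported here. The genes named are all members, all other family genes and, from each wider list, up to 5 called genes with the smallest p and the 2 with the highest mean FPKM. The alternatives were pseudocounts of 0.1 and 5, no minimum or one of 5 FPKM, quantile normalization, equal totals, median centring, a trimmed mean of log ratios, no variance trend, no shrinkage, the replicate number as a block, voom, and leaving out each library.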

Additional observations from a re-analysis of the deposited data

How the results depend on the processing

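For 39 tested genes (the members, the other family genes and those named from the wider lists, without Csf2rb and the cell markers), the alternatives were compared gene by gene, and none was called in the opposite direction in any of 698 comparisons with an alternative. For the members, 143 comparisons kept the call or its absence and 18 lost it, all of Stat5a or Jak2. For the other genes 490 kept it and 47 lost it. In 23 comparisons a gene that was called in neither changed sign. Members called lower numbered 3, and 1 without variance shrinkage or 1 to 2 when a library was left out. They numbered 2 without a minimum level, without the variance trend, and with quantile normalization, median centring or the trimmed mean. The 11 lower genes of the wider lists became 7 without shrinkage, and the 6 higher became 2 without shrinkage, 2 without a minimum level, 10 with voom and 2 to 4 when a library was left out. Over all genes, 798 lower and 465 higher became 372 and 257 without a minimum level, 314 and 227 without shrinkage, 1309 and 727 with voom, and 385 to 604 and 273 to 373 when a library was left out. Without the variance trend 515 were lower. Scaling moved the balance in both directions: lower genes were 63.2% of those called, but 45.8% (504 lower, 597 higher) after median centring, 46.8% (523, 594) with the trimmed mean and 49.5% (588, 600) after quantile normalization. With equal library totals they were 71.3% (958, 386). The cause of these shifts was not tested. With the replicate block, 2 members were lower and 579 genes were lower and 378 higher in all, and Stat5a (adjusted p = 0.0820) and Ifngr1 (0.0767) were not called. Libraries sharing a number did not deviate together (correlations of -0.015, 0.016 and -0.016 across genes), so the numbers were not taken as a pairing. Among the members, Cish had the fewest fragments, 5 to 15 per library.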

Other observations

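Of the 44 genes of the wider lists under the minimum level for the test, several had groups that did not overlap. Their values are given without a test, and the genes were chosen after these values had been seen. For 3 against 3 libraries such a separation has an exact two-sided permutation p of 0.10. The share of all genes under the minimum that separate in this way was not counted, and among the genes tested it was 33.4%. Il9r, with at most 3 fragments in any library, also had such groups. Bcl2, an inhibitor of apoptosis on the STAT5 list, had 61 to 79 fragments per DMSO library and 113 to 134 per DASA-58 library, or 0.399 ± 0.0651 and 0.712 ± 0.0581 FPKM (SD, n = 3). Its values were higher with DASA-58, whereas those of Cish and Socs2, which STAT5 also induces, were lower. These genes were all under the minimum, and no reading of STAT5 signaling is drawn from them. Lif, a cytokine that signals through gp130, had 23 to 34 and 11 to 15 fragments, or 0.353 ± 0.0728 and 0.169 ± 0.0299 FPKM. Irf4, a transcription factor on the STAT6 list, had 5 to 10 and 11 to 17 fragments, and Il7 had 4 to 15 and 1 to 3.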
